A study of Mus musculus with 12 samples.

Results

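Monoubiquitin on histone H2B is written, kept in balance and removed by a small set of proteins, and 10 of their genes were followed here through the loss of Phf6. The members were Phf6, the E2 enzyme genes Ube2a and Ube2b, the ligase genes Rnf20 and Rnf40, their partner Wac, the PAF1 complex genes Paf1 and Ctr9, and the deubiquitinase genes Usp22 and Usp44. They were picked by symbol from the 53379 genes in each table, and all 10 were found and passed the filter on low counts. RNA was sequenced from mouse ZHBTc4 embryonic stem cells of strain 129/Ola, wild type (WT) or Phf6 knockout (KO), with 2 libraries in each of 6 groups. Cells of either genotype were left untreated, treated with doxycycline over 2 days, or given all-trans retinoic acid for 4 days (10 mM in the protocol text). The doxycycline dose was 0.5 µg/ml in the sample labels and 0.5 mg/ml in the protocol text.

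Every group carried the conditional Oct4 system of ZHBTc4, in which Oct4 comes from a transgene that doxycycline silences. Retinoic acid was given in medium without leukemia inhibitory factor, so the effect of the agent and of the withdrawn factor cannot be told apart. RNA of the retinoic acid groups also went through another extraction kit, which cannot be told apart from the treatment either. Cells had been started on fibroblast feeders and then moved to gelatin. The number of lines per genotype is not given in the sources used here. Nothing in the labels says that the 2 replicates of a group came from separate cultures, so every p-value rests on a spread between libraries that may be technical.

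In mammals the E2 enzymes UBE2A and UBE2B, both relatives of yeast Rad6, pass ubiquitin to histone H2B together with the RNF20 and RNF40 ring-finger ligases. WAC links these ligases to RNA polymerase II, and the PAF1 complex, with CTR9 as its scaffold, is needed for the mark during elongation. USP22, the catalytic subunit of the deubiquitinase module of the SAGA coactivator, and USP44 remove it. The series title names PHF6 as a further H2B ligase that acts on trophectodermal genes, and the comparisons below ask how the transcripts of the known machinery stood when Phf6 was lost.

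Libraries held 15799544 to 21441994 expected counts. Levels are given as CPM, read counts scaled to TMM-adjusted library sizes by edgeR, as mean ± SD over the 2 libraries, and differences as log2 values ± SE from 1 edgeR quasi-likelihood fit over 17884 genes. A gene was called where its Benjamini-Hochberg adjusted p was below 0.05. The summed level of 8 stem cell markers was 7072 to 8101 CPM in untreated libraries, 367 to 503 with doxycycline and 1752 to 2889 with retinoic acid. The summed level of 8 trophectoderm markers was 2354 to 2686 CPM in WT and 1512 to 1616 in KO with doxycycline, against 80.4 to 123 untreated. With doxycycline most of that sum came from Krt8 (1089 CPM in WT, 760 in KO) and Krt18 (829 and 624). Elf5 was barely detected (0.135 and 0.0896 CPM), and Eomes was at 3.62 and 3.37 against 3.42 and 2.5 untreated. The remaining genes of that list, Cdx2, Gata3, Hand1 and Tfap2c, rose in both lines. A list of 6 feeder fibroblast genes summed to more in KO than in WT in each condition, although its single genes went both ways. It stood at 24.8 to 26.8 CPM in WT and 33.9 to 36.3 in KO when untreated, at 14.2 to 14.7 and 28.9 to 33.3 in doxycycline, and at 30.0 to 30.3 and 31.8 to 32.2 in retinoic acid, with Lum at 0 in untreated KO and in doxycycline-treated WT libraries. The part of these markers in the KO to WT differences below was not tested. In bulk RNA, fewer cells of a type and less RNA per cell cannot be told apart.

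Phf6, which encodes a chromatin protein with extended PHD fingers, was low in all 6 KO libraries (GRCm38 chromosome X, 52912266 to 52956943, plus strand, ENSMUSG00000025626.16). WT libraries held 42.8 and 40.2 CPM untreated, 35.1 and 29.9 with doxycycline and 40.3 and 40.7 with retinoic acid. KO libraries held 4.49 and 6.5, 7.38 and 8.19, and 5.9 and 5.96 CPM in the same order. The highest KO library thus lay well under the lowest WT library. The KO to WT difference was -2.91 ± 0.121 (adjusted p = 2.6e-16) in untreated cells, -2.06 ± 0.115 (3.5e-14) in doxycycline and -2.77 ± 0.112 (3e-17) in retinoic acid.

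Transcript from the Phf6 locus remained in KO cells at 13.3% of the untreated WT mean, at 23.9% in doxycycline and at 14.6% in retinoic acid. These shares rest on 70 to 137 reads per KO library, against 516 to 915 per WT library. RSEM's weighted transcript length was 3984 to 4340 bases in KO and 4271 to 4334 in WT. The longest of the 5 annotated Phf6 transcripts is 4350 bases, close to the weighted length of most libraries. Exon-level reads were not analysed here, so the deleted stretch was not examined.

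Doxycycline moved the Phf6 signal in opposite directions in the lines. It fell by 0.36 ± 0.0916 on the log2 scale in WT (adjusted p = 0.0012) and rose by 0.49 ± 0.155 in KO (0.0068). The difference of these responses was 0.85 ± 0.18 (adjusted p = 0.00094). On log2(TPM + 1) that difference was 0.65 (adjusted p = 0.069) and the WT fall was -0.21 (0.24), and neither passed. The KO rise was 0.26 without untreated KO replicate 1 (adjusted p = 0.2) and 0.42 without doxycycline-treated KO replicate 2 (0.053), and the WT fall was -0.24 without doxycycline-treated WT replicate 2 (0.054). Retinoic acid gave no call on counts in WT (-0.03 ± 0.0878, adjusted p = 0.73) or in KO (0.1 ± 0.158, 0.56). The limma fit on log2(TPM + 1) called Phf6 higher in WT (0.45, adjusted p = 0.015) and in KO (0.47, 0.012). On that scale the medians of all genes were 0.43 and 0.42. By CPM the order of groups, from the top, was untreated WT, retinoic acid WT and doxycycline WT, then KO in doxycycline, in retinoic acid and untreated. Untreated and retinoic acid libraries overlapped in each line.

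By TPM, which is per length and can be set side by side between genes, the members spanned a wide range in untreated WT cells. Ube2b stood at 95.9 ± 4.38 TPM, Ube2a at 91.3 ± 4.84 and Paf1 at 89.8 ± 5.83. Usp22 and Wac followed at 62.2 ± 1.16 and 61.8 ± 5.86 TPM. Rnf40 (36.1 ± 1.33), Ctr9 (35.8 ± 1.23) and Rnf20 (30.1 ± 1.15) formed a lower tier, and Phf6 (12.2 ± 0.764) and Usp44 (7.37 ± 0.0778) were lowest. Across the 6 group means the CPM of Rnf20 varied 1.23-fold and that of Rnf40 1.3-fold. Usp22 varied 2.11-fold, Ctr9 2.97-fold and Usp44 6.21-fold, so the ligase genes varied least and Usp44 most among the members other than Phf6, at 7.55-fold.

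**Figure D1:**
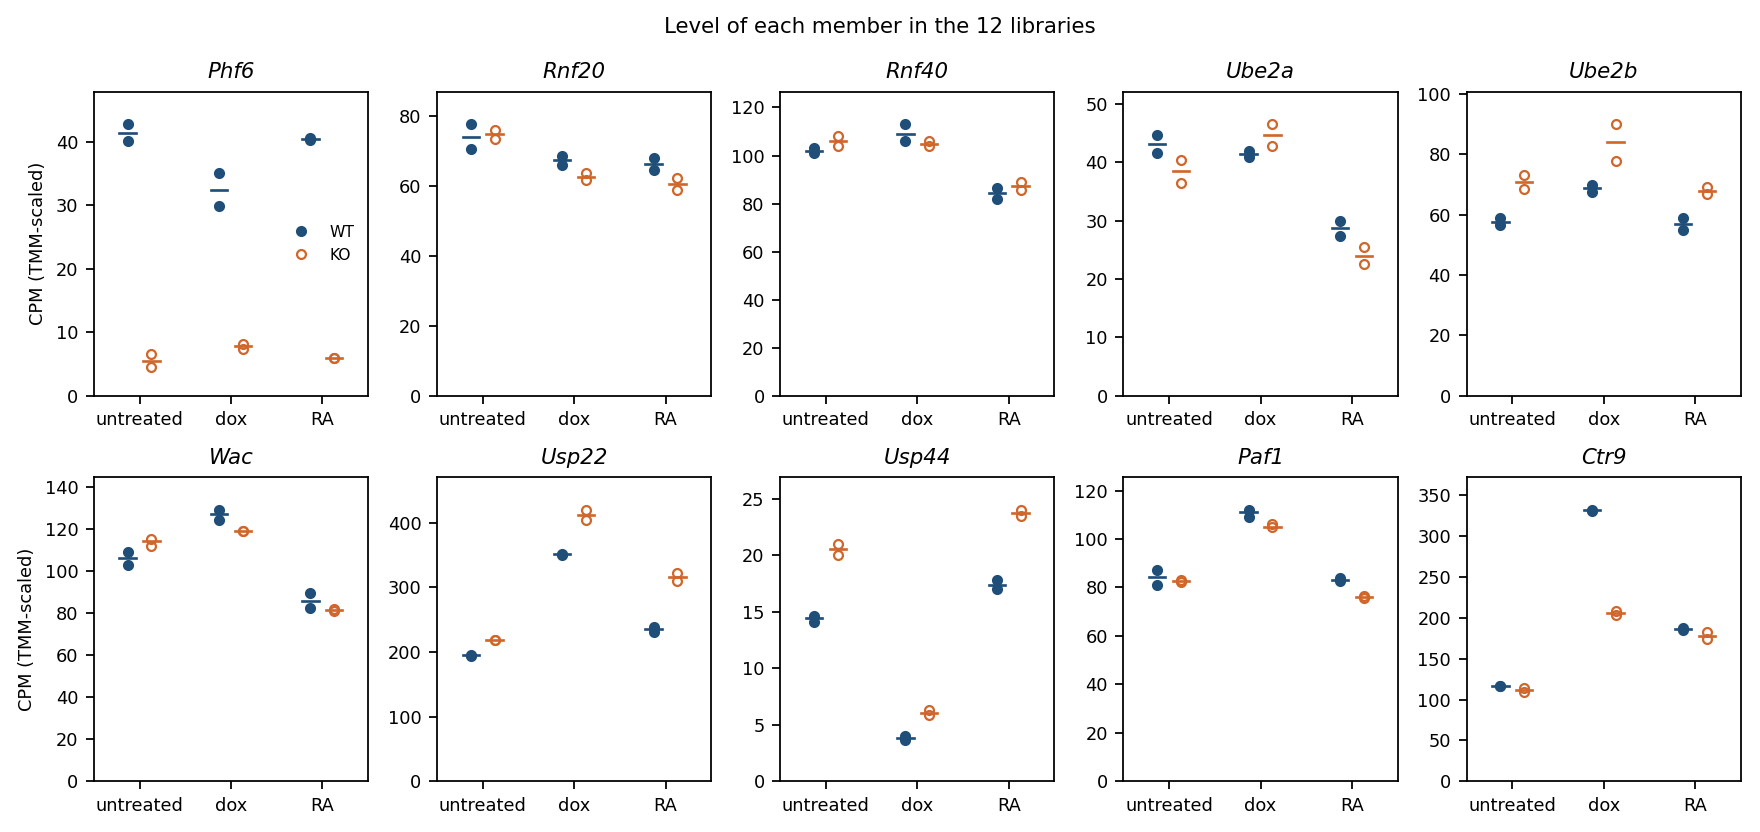
TMM-scaled CPM (y axis, linear from 0) of each member in the 12 libraries, by condition (x axis: untreated, doxycycline as dox, retinoic acid as RA). Filled points are WT libraries, open points are KO libraries and bars are group means. Phf6 is low in every KO library, Ctr9 is highest in doxycycline-treated WT cells, and Usp22 and Usp44 are higher in KO than in WT in each condition.

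Counted over the 10 members, loss of Phf6 called 3 higher and 1 lower in untreated cells, where 15.2% and 14.9% of all tested genes were called. With doxycycline 3 were higher and 2 lower (17.9% and 19.1% of all genes, or 23.3% and 15.1% with upper-quartile scaling), and with retinoic acid 3 were higher and 2 lower (18.8% and 20.0%). Phf6 itself is 1 of the lower calls each time. The 3 higher members were Ube2b, Usp22 and Usp44 in each condition. The 3 comparisons share no library, but they come from 1 fit, and the number of lines per genotype is not given. A fixed difference between the lines would recur in each, so the 3 are not independent evidence. The median over the 10 members was 0.03, -0.07 and -0.07 in the 3 conditions, against 0.02, 0 and -0.01 over all tested genes.

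The E2 pair is encoded by sequences that differ at many positions, which bears on whether reads could be divided between them. The first 180 coding bases of transcripts Ube2a-201 and Ube2b-201 (GENCODE M21) are shown 5′ to 3′ with the differing bases in capitals.
Ube2a: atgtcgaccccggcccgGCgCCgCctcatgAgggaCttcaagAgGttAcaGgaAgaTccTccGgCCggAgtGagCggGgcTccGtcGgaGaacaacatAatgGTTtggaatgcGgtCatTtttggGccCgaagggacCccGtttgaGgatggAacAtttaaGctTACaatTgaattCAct
Ube2b: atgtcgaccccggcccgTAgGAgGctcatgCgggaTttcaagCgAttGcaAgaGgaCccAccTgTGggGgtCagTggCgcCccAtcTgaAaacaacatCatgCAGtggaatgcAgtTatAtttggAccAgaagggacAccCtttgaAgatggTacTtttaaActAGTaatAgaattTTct
These stretches differ at 46 of 180 bases. Over all 459 coding bases 356 were identical (77.6%), and the longest identical run was 17 bases. The expected counts of both genes were whole numbers in all 12 libraries.

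Ube2b (chromosome 11, 51985497 to 52000762, minus strand) was higher in KO than in WT in all 3 conditions. Untreated WT libraries held 56.5 and 58.7 CPM and KO libraries 68.6 and 73.2. With doxycycline the WT libraries held 69.9 and 67.4 CPM and the KO libraries 77.9 and 89.9. With retinoic acid they held 58.8 and 54.9 in WT and 69.1 and 66.7 in KO. In no condition did KO and WT libraries overlap by CPM, but by TPM the retinoic acid libraries did (138 and 120 in WT, 159 and 132 in KO). The KO to WT difference was 0.3 ± 0.0674 (adjusted p = 0.00098), 0.29 ± 0.0647 (0.00071) and 0.26 ± 0.0647 (0.0023), about a 1.2-fold higher level each time (1.23, 1.22 and 1.19). On log2(TPM + 1) the untreated value was 0.28 (adjusted p = 0.083) and the retinoic acid value 0.17 (0.25), neither past the threshold.

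Ube2b also rose with doxycycline, by 0.25 ± 0.0673 in WT (adjusted p = 0.0018) and 0.24 ± 0.0649 in KO (0.002). The KO value was 0.14 (adjusted p = 0.092) without doxycycline-treated KO replicate 2, and the WT value was 0.14 (0.084) with upper-quartile scaling. The other E2 gene, Ube2a (chromosome X, 36873900 to 36884222, plus strand), behaved differently. Its libraries held 41.5 and 44.6 CPM in untreated WT and 36.5 and 40.4 in untreated KO. With doxycycline they held 41.9 and 40.9 in WT and 42.8 and 46.5 in KO, and with retinoic acid 27.3 and 30 in WT and 22.5 and 25.5 in KO. Both retinoic acid groups thus lay below all other libraries.

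With retinoic acid Ube2a fell by 0.59 ± 0.0783 in WT (adjusted p = 1.3e-07) and by 0.68 ± 0.082 in KO (1.9e-08), while the WT value on log2(TPM + 1) was -0.15 (0.22). It was also lower in KO than in WT there (-0.26 ± 0.0822, adjusted p = 0.014), a difference that was -0.16 (0.27) without retinoic acid KO replicate 1 and -0.19 (0.17) without retinoic acid WT replicate 2. That call was also lost with DESeq2 (-0.23, adjusted p = 0.14) and on log2(TPM + 1) (-0.27, 0.072). The untreated KO to WT value of -0.16 ± 0.0782 did not pass (0.13). In doxycycline-treated KO cells Ube2a rose by 0.21 ± 0.0775 (adjusted p = 0.018), which was 0.15 (0.2) without untreated KO replicate 1 and 0.16 (0.14) without doxycycline-treated KO replicate 2, and 0.2 (0.15) with DESeq2. C330007P06Rik, a protein-coding gene at 24.7 to 38.5 CPM, overlaps Ube2a on the opposite strand. The strand setting is not given in the sources used here, but 0 of the 2272 annotated exonic bases of Ube2a lie in its exons.

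Taken as a pair by TPM, the share of Ube2b in the sum of Ube2a and Ube2b was 51.2% ± 2.47 in untreated WT and 57.6% ± 0.254 in untreated KO. With doxycycline it was 56% ± 0.479 in WT and 60.1% ± 0.681 in KO, and with retinoic acid 60.9% ± 5.2 and 67.8% ± 5.25. The share was higher in KO at each condition, but the retinoic acid libraries overlapped (64.6% and 57.2% in WT, 71.5% and 64.1% in KO). The shares are given without a test.

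Rnf20 and Rnf40, the genes of the 2 ligase partners that bind H2B and carry the catalytic ring, showed no KO to WT call in any condition in the edgeR fit. Rnf20 (chromosome 4, 49632006 to 49656887, plus strand) held 77.5 and 70.5 CPM in untreated WT and 73.4 and 75.8 in untreated KO. It held 65.8 and 68.5 against 61.5 and 63.6 with doxycycline, and 67.8 and 64.5 against 62.3 and 58.7 with retinoic acid. Its KO to WT differences were 0.01 ± 0.0608, -0.11 ± 0.0617 and -0.13 ± 0.0599 (adjusted p = 0.93, 0.19 and 0.095). The retinoic acid value passed in 2 of 20 alternative settings, with adjusted p from 0.043 to 0.43.

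Rnf40 (chromosome 7, 127588767 to 127604799, plus strand) held 101 and 103 CPM in untreated WT and 104 and 108 in untreated KO. With doxycycline it held 106 and 113 in WT and 104 and 106 in KO, and with retinoic acid 86.6 and 81.8 in WT and 85.8 and 88.8 in KO. Differences were 0.05 ± 0.0546, -0.06 ± 0.054 and 0.05 ± 0.0542 (adjusted p = 0.5, 0.39 and 0.5). Wac, whose product adapts the ligases to RNA polymerase II, stood between 80.7 and 129 CPM over the 12 libraries. Its KO to WT differences of 0.1 ± 0.0538, -0.09 ± 0.0527 and -0.08 ± 0.054 did not pass (0.17, 0.2 and 0.25).

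Paf1 (chromosome 7, 28392951 to 28399388, plus strand), which gives the PAF1 complex its name, was not called between the lines either. Its differences were -0.02 ± 0.0545, -0.08 ± 0.052 and -0.13 ± 0.0529 (adjusted p = 0.8, 0.27 and 0.059). The retinoic acid value passed in 10 of 20 alternative settings, at -0.1 to -0.22 with adjusted p from 0.021 to 0.31.

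Ctr9 (chromosome 7, 111028951 to 111056377, plus strand) is the scaffold gene of the same complex. In WT cells it gave the largest response to doxycycline among the members that rose. Its response was smaller in KO cells (0.88 ± 0.0489), where Usp22 rose by 0.91 ± 0.0467. Untreated libraries held 116 and 117 CPM of Ctr9 in WT and 114 and 109 in KO. With doxycycline WT libraries rose to 332 and 331 CPM, while KO libraries reached 204 and 208. With retinoic acid the lines stood at 185 and 187 in WT and 182 and 174 in KO. By CPM KO lay below WT in each condition without overlap, and the gap was widest with doxycycline. By TPM the untreated libraries overlapped (36.7 and 35.0 in WT, 35.3 and 34.5 in KO). The retinoic acid libraries overlapped by TPM as well (85.2 and 85.6 in WT, 86.0 and 81.2 in KO).

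Ctr9 rose with doxycycline by 1.51 ± 0.0484 in WT, 2.84-fold (adjusted p = 7.3e-21), and by 0.88 ± 0.0489 in KO, 1.84-fold (2.4e-15). The difference of responses was -0.62 ± 0.0685 (adjusted p = 1.1e-07), and KO stood below WT in doxycycline by -0.69 ± 0.0465 (1.9e-12). No KO to WT call was made untreated (-0.06 ± 0.0503, adjusted p = 0.38) or with retinoic acid (-0.07 ± 0.0469, 0.28). The retinoic acid response was 0.67 ± 0.0485 in WT and 0.67 ± 0.0489 in KO. The trophectoderm marker sum was also lower in KO than in WT with doxycycline (1512 to 1616 against 2354 to 2686 CPM), and its part in the Ctr9 difference was not tested. All KO to WT and doxycycline values of Ctr9 kept their side of the threshold in the 20 alternative settings.

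Paf1 rose less than Ctr9 with doxycycline, by 0.4 ± 0.0531 in WT (adjusted p = 1.8e-07) and 0.35 ± 0.0534 in KO (2e-06). Its libraries held 87.2 and 81.1 CPM in untreated WT against 109 and 112 with doxycycline, and 82.4 and 83.2 in untreated KO against 106 and 105. By TPM, Ctr9 made up 28.6% ± 0.625 of the sum of the 2 genes in untreated WT and 27.6% ± 0.296 in untreated KO. With doxycycline the share was 46.6% ± 0.488 in WT and 37.1% ± 0.0699 in KO.

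Usp22 (chromosome 11, 61151785 to 61175055, minus strand), the SAGA deubiquitinase gene, was higher in KO than in WT in each condition. Libraries held 196 and 194 CPM in untreated WT and 219 and 219 in untreated KO. With doxycycline they held 350.0 and 351 in WT and 420.0 and 404 in KO, and with retinoic acid 231 and 238 in WT and 322 and 310.0 in KO. By CPM all 6 groups were apart from their neighbours in the order of levels, with untreated WT lowest and doxycycline KO highest. By TPM retinoic acid KO was highest (150) and overlapped doxycycline KO (147).

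The KO to WT difference of Usp22 was 0.17 ± 0.0475 untreated (adjusted p = 0.0079), 0.23 ± 0.0457 with doxycycline (0.00016) and 0.43 ± 0.046 with retinoic acid (1.4e-08). The untreated call was lost when any of the 4 untreated libraries was left out, with values of 0.15 to 0.16 and adjusted p from 0.064 to 0.075. Usp22 rose with doxycycline by 0.85 ± 0.0469 in WT and 0.91 ± 0.0467 in KO (adjusted p = 2.5e-15 and 4e-16). It rose with retinoic acid by 0.27 ± 0.047 in WT and 0.53 ± 0.0466 in KO (1.2e-05 and 4e-11), and that response was larger in KO by 0.26 ± 0.0661 (0.0051). In the same retinoic acid libraries 5 primitive endoderm markers summed to 299 to 330 CPM in WT and 695 to 733 in KO, and the 8 stem cell markers to 2694 to 2889 and 1752 to 1783. Their part in the Usp22 difference was not tested. The doxycycline responses did not differ beyond error (0.07 ± 0.0659, adjusted p = 0.56).

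Usp44 (chromosome 10, 93831555 to 93858088, plus strand), the other deubiquitinase gene, was the least abundant member by TPM in untreated WT cells and moved against Usp22 with doxycycline. Libraries held 14.1 and 14.6 CPM in untreated WT and 21 and 20 in untreated KO. With doxycycline they fell to 4.02 and 3.63 in WT and 6.26 and 5.86 in KO, and with retinoic acid they stood at 17.8 and 17 in WT and 24 and 23.5 in KO. The libraries of the 6 groups did not overlap at any step of the order. Doxycycline libraries rest on 59 to 112 reads each.

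The KO to WT difference of Usp44 was 0.51 ± 0.0997 untreated (adjusted p = 0.00021), 0.67 ± 0.148 with doxycycline (0.0006) and 0.45 ± 0.0906 with retinoic acid (0.00022). With doxycycline Usp44 fell by 1.92 ± 0.129 in WT, 3.77-fold, and by 1.76 ± 0.113 in KO, 3.38-fold (2.1e-13 and 7.7e-14). The retinoic acid rises of 0.27 ± 0.0985 in WT (adjusted p = 0.014) and 0.21 ± 0.092 in KO (0.039) were small on counts. The KO rise was lost in 11 of 12 fits that left out 1 library, with values of 0.15 to 0.22 and adjusted p up to 0.28. The WT rise was 0.21 (adjusted p = 0.13) without untreated WT replicate 1, 0.27 (0.058) without untreated WT replicate 2 and 0.23 (0.1) without retinoic acid WT replicate 1. DESeq2 called neither rise (0.23, adjusted p = 0.24, and 0.2, 0.28). The limma fit on log2(TPM + 1) called both, at 0.74 (adjusted p = 4.6e-05) and 0.71 (5.7e-05), where the medians of all genes were 0.43 and 0.42. By TPM, Usp44 made up 10.6% ± 0.0766 of the sum with Usp22 in untreated WT and 13.3% ± 0.202 in untreated KO, and 1.74% ± 0.088 and 2.36% ± 0.0428 with doxycycline. The summed level of the 8 stem cell markers fell with doxycycline in the same libraries (to 367 to 503 CPM), and its part in the fall of Usp44 was not tested.

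**Figure D2:**
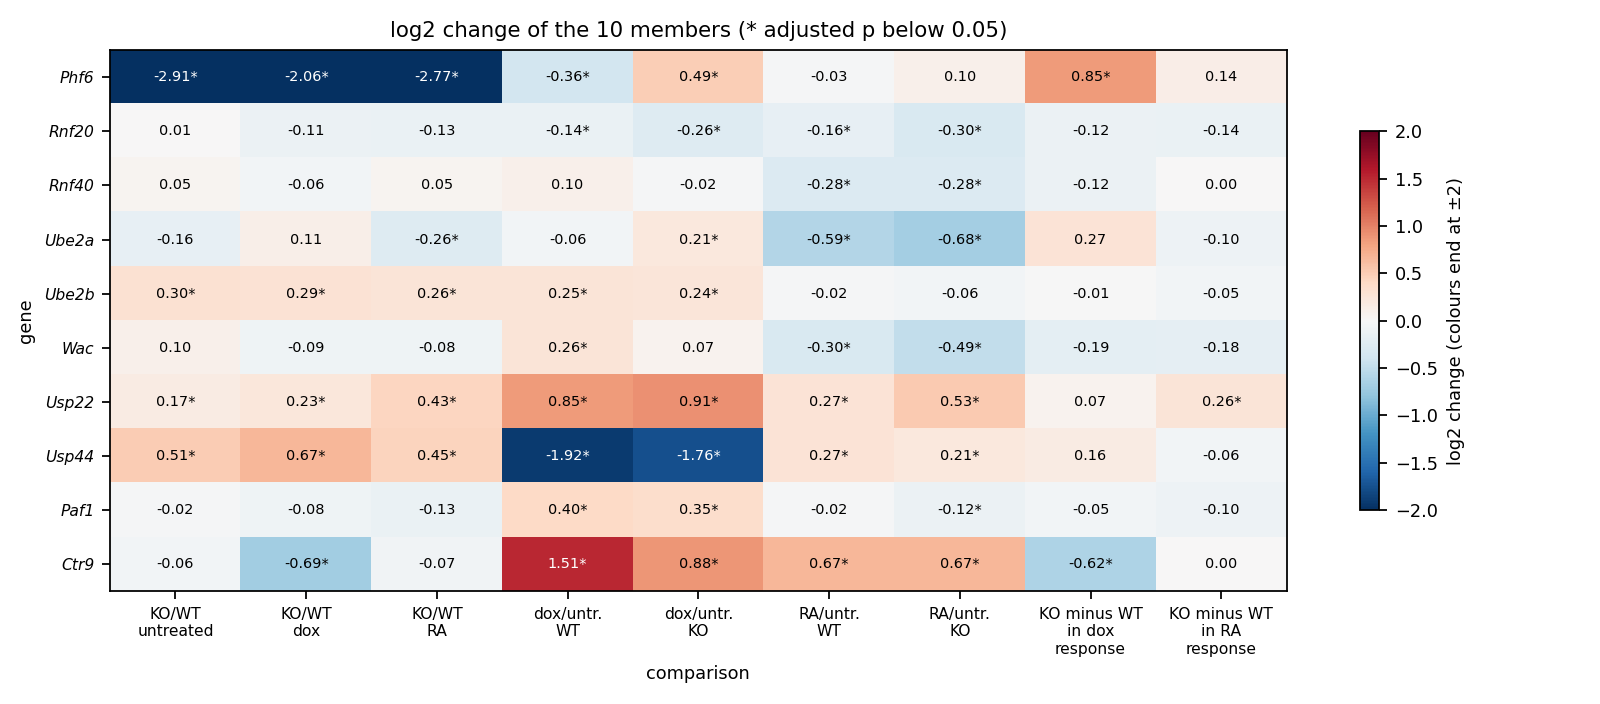
Log2 change of the 10 members (rows) in the 9 comparisons (columns) from the edgeR fit, red for higher and blue for lower in the first-named group, with colours ending at ±2 and an asterisk at an adjusted p below 0.05. The last 2 columns are the KO response minus the WT response. Ube2b, Usp22 and Usp44 are red and marked in all 3 KO to WT columns, and Ctr9 is marked there with doxycycline only (-0.69).

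The treatment comparisons within a line share their untreated libraries. Doxycycline called 5 members higher and 3 lower in WT, where 31.8% and 31.3% of all genes were called, and 6 higher and 2 lower in KO (31.2% and 31.2%). The remaining doxycycline calls were small. Wac rose by 0.26 ± 0.0532 in WT (adjusted p = 0.00014) and was not called in KO (0.07 ± 0.0532, 0.3), but the responses did not differ past the threshold (-0.19 ± 0.0753, 0.078). Rnf20 fell by 0.14 ± 0.061 in WT (adjusted p = 0.048) and by 0.26 ± 0.0615 in KO (0.00067). The WT call of Rnf20 was lost in 9 of 12 fits with 1 library left out, with values from -0.2 to -0.07 and adjusted p up to 0.43, and on the TPM scales its value was 0. The KO fall was -0.19 on log2(TPM + 1) (adjusted p = 0.12). Of the 10 members, 1 had a higher and 1 a lower doxycycline response in KO than in WT (Phf6 and Ctr9), against 9.11% and 10.0% of all genes.

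The retinoic acid response depended on the scale. On TMM-scaled counts, 3 members were called higher and 4 lower in WT, where 41.0% and 32.9% of all genes were called, and 3 higher and 5 lower in KO (40.9% and 34.6%). On log2(TPM + 1) the same counts were 7 higher and 0 lower in WT, and 7 higher and 1 lower in KO. The median of all tested genes moved with the scale as well, from 0.12 to 0.43 in WT and from 0.1 to 0.42 in KO. Of all calls, 80.2% were higher in WT on log2(TPM + 1), where 57.4% of genes were called higher and 14.2% lower. In KO 76.9% of calls were higher.

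Changes with retinoic acid are therefore also given relative to the median of all genes. Ctr9 stood above that median by 0.55 in WT and 0.57 in KO on counts, and by 0.8 and 0.82 on log2(TPM + 1). Usp22 stood above it by 0.15 and 0.43 on counts, and by 0.33 and 0.66 on log2(TPM + 1). Ube2a stood below it by -0.71 in WT and -0.79 in KO on counts, and by -0.57 and -0.75 on log2(TPM + 1). Wac stood below it by -0.42 and -0.59 on counts, and by -0.37 and -0.52 on log2(TPM + 1). Rnf40 stood below it by -0.4 and -0.38 on counts, and by -0.32 and -0.15 on log2(TPM + 1). Usp44 stood above it by 0.15 and 0.11 on counts, and by 0.31 and 0.29 on log2(TPM + 1). These 6 genes kept their direction relative to the median on both scales in both lines. Rnf20 and Paf1 did so in KO, at -0.4 and -0.23 on counts and -0.36 and -0.22 on log2(TPM + 1), but in WT they went from -0.28 and -0.14 on counts to 0 and 0.02.

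Without that reference, the values of the ligase genes, Wac and Paf1 depended on the scale. Rnf40 fell by 0.28 ± 0.0544 in WT and 0.28 ± 0.0545 in KO (adjusted p = 5.1e-05 and 4.1e-05), but was at 0.11 and 0.27 on log2(TPM + 1). Rnf20 fell by 0.16 ± 0.0599 in WT (adjusted p = 0.017) and 0.3 ± 0.0608 in KO (6.7e-05), but was at 0.42 and 0.06 on log2(TPM + 1). The WT call of Rnf20 was also lost without untreated WT replicate 1 (-0.13, adjusted p = 0.13) and without retinoic acid WT replicate 2 (-0.14, 0.09). Wac fell by 0.3 ± 0.0538 in WT and 0.49 ± 0.0541 in KO (1.2e-05 and 4.5e-09), but was at 0.05 and -0.1 on log2(TPM + 1). Paf1 fell in KO by 0.12 ± 0.0541 (adjusted p = 0.043), where it was at 0.2 on log2(TPM + 1), and adjusted p rose to 0.099 with 1 library left out. The KO and WT responses to retinoic acid differed for 1 member in the higher direction (Usp22) and for 0 in the lower direction by edgeR, against 7.31% and 10.3% of all genes. At an unadjusted p below 0.05, Wac (-0.18 ± 0.0762) was the member in the lower direction, and DESeq2 also called 0.

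**Figure D3:**
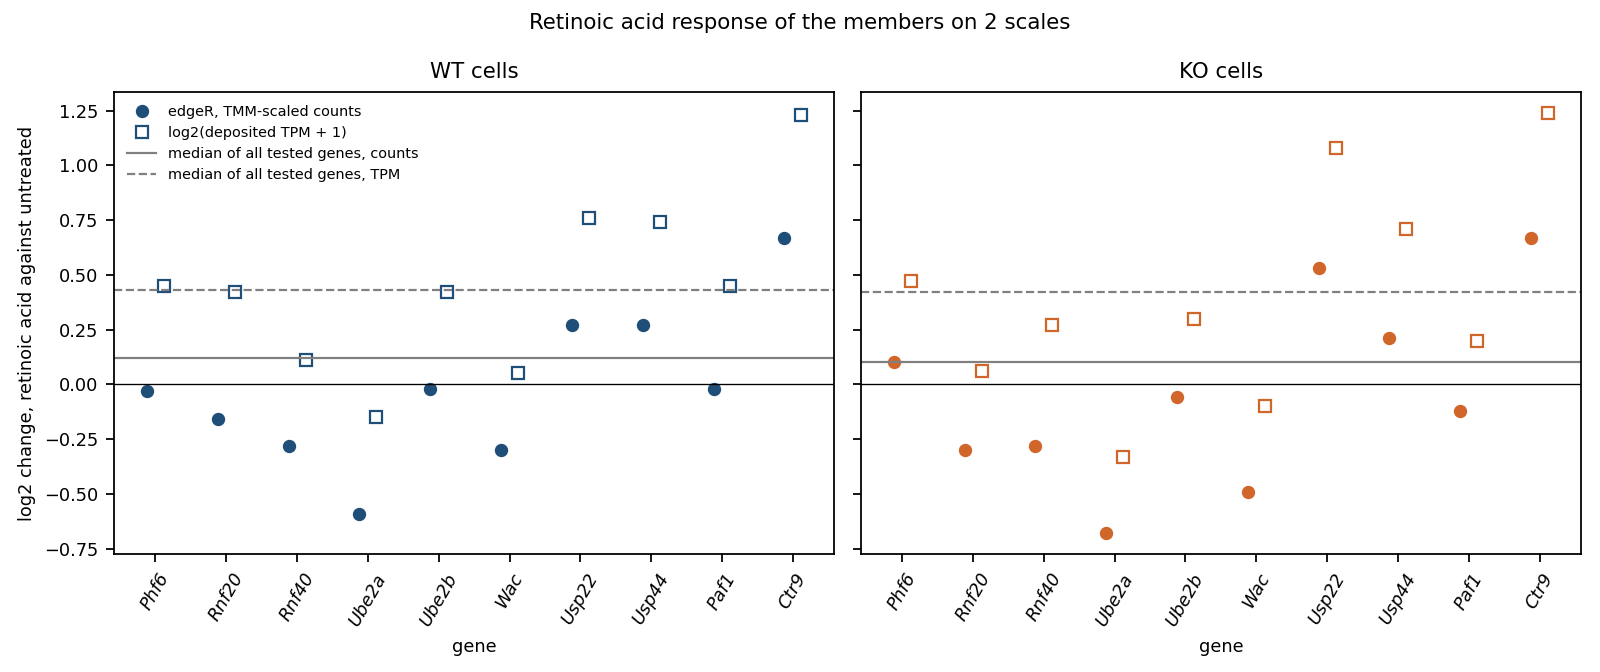
Log2 change with retinoic acid against untreated (y axis) of each member (x axis) in WT (left) and KO cells (right), from TMM-scaled counts (filled circles) and from log2(deposited TPM + 1) (open squares). Grey lines mark the median of all tested genes on each scale, at 0.12 and 0.43 in WT. Ctr9 and Usp22 lie above, and Ube2a below, both medians of their own scale.

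The genes whose pattern over the 6 group means was most like that of Phf6 were taken from 11444 genes of at least 5 CPM, by the root mean square difference of centred log2 levels. Diaph2 on chromosome X was nearest (0.343), with means of 22.2, 22.5 and 23.8 CPM in untreated, doxycycline and retinoic acid WT cells and 5.58, 6.48 and 5.53 in KO cells. Steap3 on chromosome 1 (0.533) and Cdc42ep5 on chromosome 7 (0.677) came next. Steap3 stood at 56.4, 104 and 61.8 CPM in WT and 19, 23.1 and 17.4 in KO. Chromosome 1 was lower in KO as a whole. The median over 644 of its genes came to -0.49 in untreated cells, -0.5 in doxycycline and -0.49 in retinoic acid, and 90.4%, 90.4% and 93% of them were below 0. No member lies on chromosome 1.

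The remaining 4 subunits of the PAF1 complex were also followed. With doxycycline 1 of 4 was higher and 1 lower in WT (Cdc73 at 0.17, Rtf1 at -0.36), where 31.8% and 31.3% of all genes were called. In KO 0 were higher and 2 lower (Leo1 at -0.17, Rtf1 at -0.38), where 31.2% and 31.2% of all genes were called. All 4 fell with retinoic acid in both lines on counts (median -0.36 and -0.32), where 32.9% and 34.6% of all genes were called lower. On log2(TPM + 1), where most calls over all genes were higher, 2 were higher in WT, and 1 higher and 1 lower in KO. Cdc73, the parafibromin gene, was lower in KO in all 3 conditions, by -0.4 ± 0.0595, -0.56 ± 0.0585 and -0.24 ± 0.059 (adjusted p = 5e-06, 8.1e-09 and 0.0019). Cdc73 lies on chromosome 1, whose medians are given above, and the part of that shift in its difference was not tested.

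Usp22 shares its SAGA adaptors ATXN7L3 and ENY2 with the related enzymes USP27X and USP51, and their genes rose with doxycycline too. Usp27x rose from 7.88 and 7.91 CPM to 20.6 and 21.5 in WT, and from 6.54 and 5.71 to 17.6 and 18.2 in KO. These changes were 1.42 ± 0.112 and 1.55 ± 0.12 (adjusted p = 7.1e-12 and 4.5e-12). Usp51 rose by 0.73 ± 0.163 in WT and 0.54 ± 0.152 in KO (adjusted p = 0.00029 and 0.003), between 4.35 and 9.02 CPM over these 8 libraries. Neither gene was higher in KO past the threshold in any condition, and Usp27x was lower in untreated KO cells (-0.37 ± 0.136, 0.042).

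Of the 15 partners and other H2B deubiquitinase genes, 9 were higher and 3 lower with doxycycline in WT, and 9 higher and 4 lower in KO, where 31.8% and 31.3% of all genes were called in WT and 31.2% and 31.2% in KO. Their medians of 0.29 and 0.31 stood beside a median of 0 over all genes. Atxn7l3, the adaptor gene, went from 146 ± 1.1 to 150.0 ± 1.04 CPM in WT with doxycycline (0.05 ± 0.049, adjusted p = 0.42) and fell from 169 ± 7.5 to 128 ± 1.07 in KO (-0.4 ± 0.0491, 3.7e-08). The responses differed by -0.45 ± 0.0694 (adjusted p = 2e-05). So Atxn7l3 was higher in KO than in WT when untreated (0.22 ± 0.0489, 0.00093) and lower with doxycycline (-0.23 ± 0.0492, 0.0004), while Usp22 was higher in both.

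Ubiquitin on H2B is known to promote methylation of H3 by the SET1 and MLL complexes and by DOT1L. Of 11 such genes, 9 were lower in KO than in WT with doxycycline and 0 higher by edgeR, where 19.1% and 17.9% of all genes were called, and the median was -0.23 against 0 over all genes. Untreated, 0 were higher and 3 lower (15.2% and 14.9% of all genes), and in retinoic acid 0 were higher and 6 lower (18.8% and 20.0%). On log2(TPM + 1) 1 of the 11 was lower untreated, 3 in doxycycline and 4 in retinoic acid. The all-gene shares above are from edgeR and do not apply to these counts, so they are given as a description only. Rbbp5, a core subunit gene lower in all 3 conditions (-0.21, -0.38 and -0.72), lies on chromosome 1, and the part of that chromosome's shift was not tested. In doxycycline none of the 11 was higher at an unadjusted p below 0.05, and DESeq2 called 0 higher and 9 lower. Setd1b, a SET1 methyltransferase gene, held 75.8 and 81.8 CPM in WT and 50.5 and 46.5 in KO with doxycycline. Its difference was -0.7 ± 0.0741 (adjusted p = 2.2e-08), against 0 ± 0.071 untreated (0.99) and -0.34 ± 0.0936 in retinoic acid (0.0046), and its doxycycline responses differed by -0.71 ± 0.103 (1.4e-05). With retinoic acid Setd1b fell by 1.84 ± 0.0796 in WT and 2.19 ± 0.0833 in KO.

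**Figure D4:**
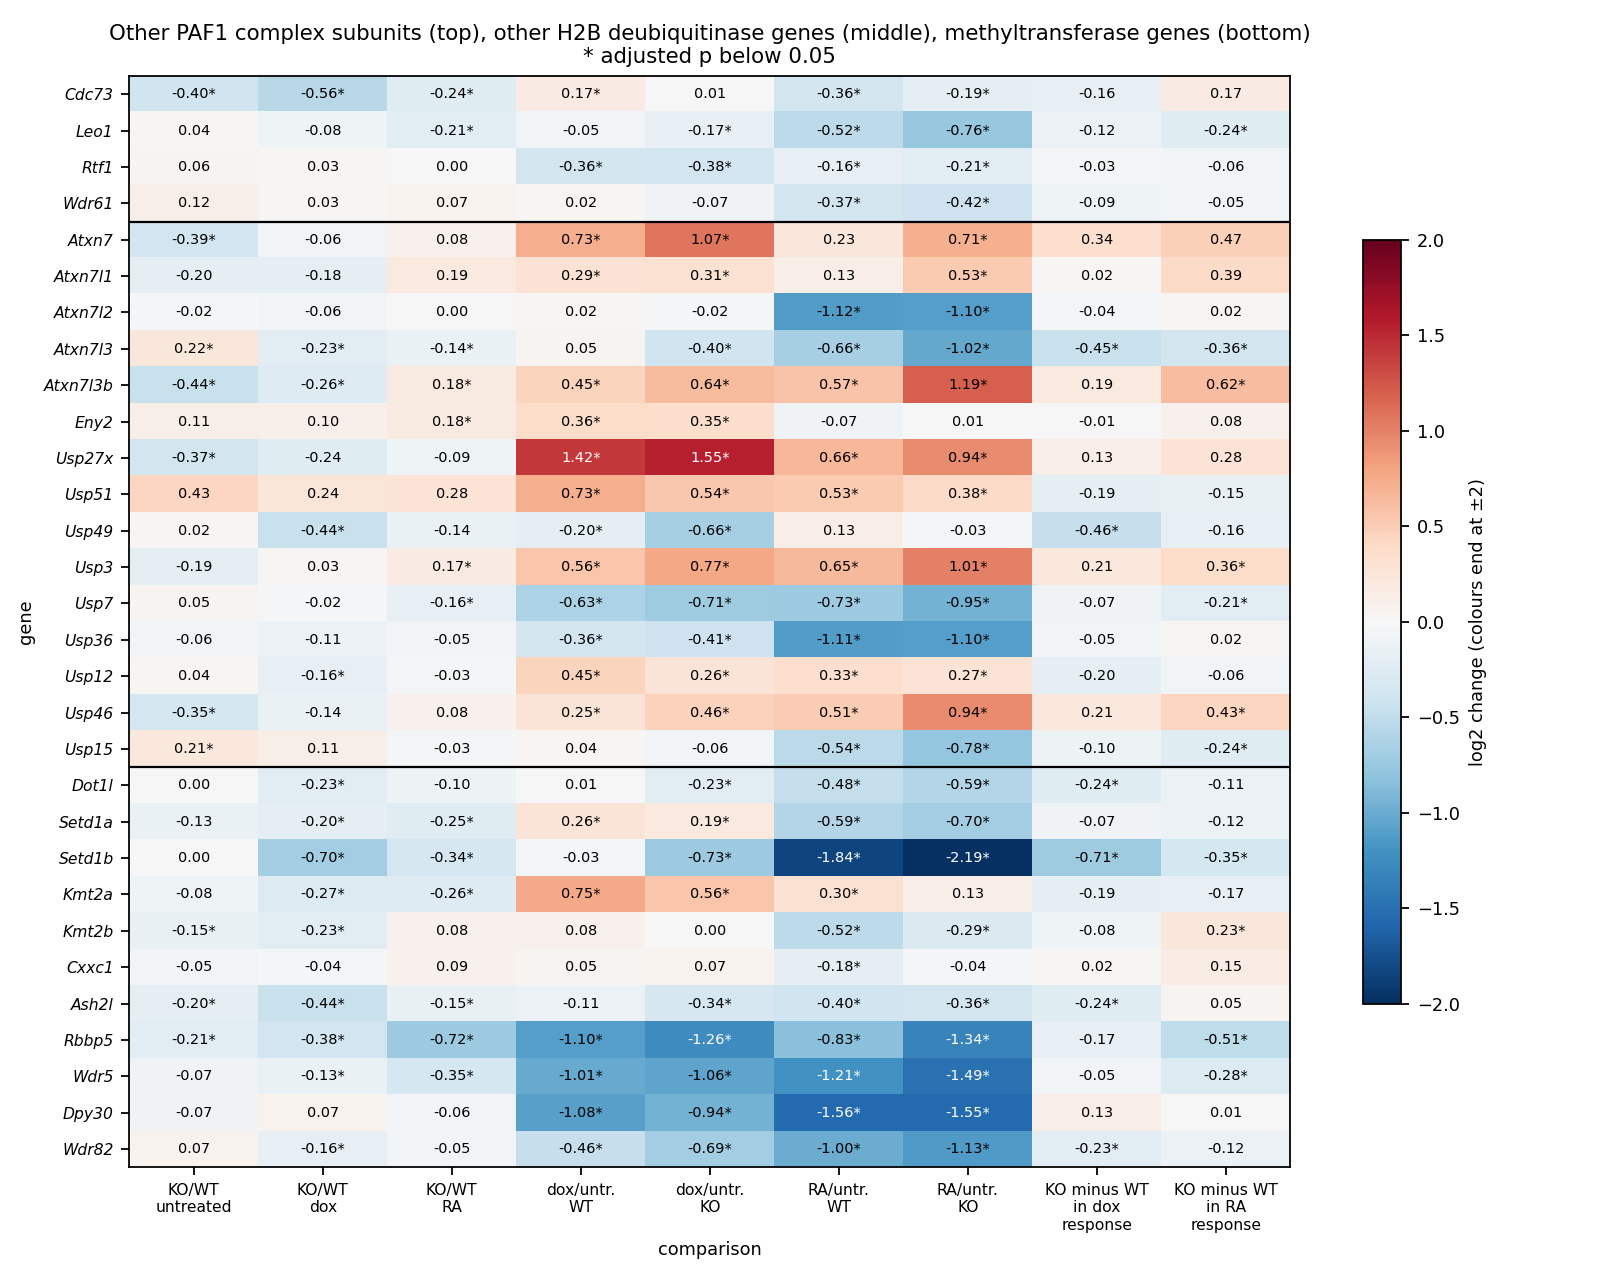
Log2 change (edgeR) of genes (rows, split by black lines) in the 9 comparisons (columns). From the top they are 4 other PAF1 complex genes and 15 SAGA partner and other H2B deubiquitinase genes. At the bottom are 11 genes of H3 methyltransferases and subunits of their complexes. Colours end at ±2 and asterisks mark an adjusted p below 0.05. Usp27x is the deepest red with doxycycline (1.42 and 1.55), and most genes of the bottom block are blue in the KO to WT column with doxycycline.

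Next were 4 further genes of ubiquitin enzymes or cofactors, not all particular to H2B (Uba1, Msl1, Msl2 and Mdm2). All 4 were higher with doxycycline in both lines (medians 0.3 and 0.39), where 31.8% and 31.2% of all genes were called higher. With upper-quartile scaling 3 of the 4 were higher in WT. Msl1, whose product forms another H2B ligase with MSL2, rose from 31.1 to 85.3 CPM in WT (1.46 ± 0.0677, adjusted p = 4.3e-17) and from 29.9 to 93.6 in KO (1.64 ± 0.0679, 2.7e-18). Msl1 was not called between the lines in any condition. Mdm2, best known as the p53 ligase, was higher in KO untreated (0.36 ± 0.0539, adjusted p = 5.1e-06) and with doxycycline (0.3 ± 0.0526, 3.1e-05).

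The genes of the substrate itself were mostly at low levels. Of 20 H2B histone genes 12 were tested, and most replication-dependent histone transcripts lack a poly(A) tail. How RNA was selected for the libraries is not given in the sources used here. In KO against WT, 14.9% to 20.0% of all genes were called in each direction taken alone. Of the 12 tested H2B genes, 0 were higher and 1 lower untreated. With doxycycline 1 was higher and 2 lower, and with retinoic acid 1 was higher and 4 lower. The higher ones were Hist2h2be in doxycycline (2.08 against 1.15 CPM, 0.84 ± 0.294, adjusted p = 0.025) and Hist3h2ba in retinoic acid (5.7 against 3.36, 0.75 ± 0.211, 0.0053). Hist1h2bc was lower in KO in all 3 conditions, at 6.1 against 9.3 CPM untreated (-0.61 ± 0.149, adjusted p = 0.0022), 4.92 against 6.87 with doxycycline (-0.49 ± 0.159, 0.015) and 8.96 against 20.3 with retinoic acid (-1.18 ± 0.119, 5e-09).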

How the data were processed

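RNA of 12 libraries (6 groups of 2, taken from the sample titles) was sequenced. Reads were aligned with STAR 2.5.3a to mm10 and quantified with RSEM 1.3.0, per the submitters' processing notes, which also name DESeq2 1.18.1. Per the file headers, the authors deposited for each library a gene table with expected counts, TPM and a transcript length weighted by isoform. Expected counts are RSEM's estimates of reads per gene, and 9.5% to 11.6% of genes held values that were not whole. TPM values, deposited by the authors, are scaled by length and library, and served for levels between genes and for an alternative test. The strand setting is not given in the sources used here, nor is the annotation release.

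Expected counts were rounded. A 3-count floor equals 0.14 to 0.19 CPM and covers counting error only. edgeR 4.0.16 (R 4.3.3; filterByExpr, minimum count 10; TMM factors 0.9 to 1.16) fitted all 12 libraries with 1 term per group, leaving 6 residual degrees of freedom. Quasi-likelihood tests of 9 contrasts over 17884 genes were adjusted by Benjamini-Hochberg with a threshold of 0.05. SE was taken as the absolute log2 change over the root of its F value. Simulated data with known changes were used to test the scripts beforehand. Alternatives were upper-quartile factors, DESeq2 1.42.0, no filter, a replicate block, only the groups compared, limma 3.58.1 on log2(TPM + 1) and log2(TPM + 0.1), no chromosome 1 genes, and each library left out. Coordinates are from GENCODE M21, with 53274 of 53379 identifiers matched. Counts of the 2 replicates in a group differed beyond sampling noise (chi-square over its degrees of freedom, 1.89 to 6.29). The named genes are the 10 members, the lists of partners and the 3 genes nearest to Phf6, and members and lists were chosen with earlier results of these data known. Genes outside the members that stand for their list were singled out after their values were seen.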

Additional observations from a re-analysis of the deposited data

Results flagged for a closer look

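The response of 3 members to a treatment differed between the lines by a test of the difference itself (edgeR, Benjamini-Hochberg). For Phf6 with doxycycline the KO response exceeded the WT response by 0.85 ± 0.18 (adjusted p = 0.00094), with the signal down in both WT libraries and up in both KO libraries. For Ctr9 with doxycycline the difference was -0.62 ± 0.0685 (adjusted p = 1.1e-07). For Usp22 with retinoic acid it was 0.26 ± 0.0661 (adjusted p = 0.0051).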

How the results depend on the processing

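Of 90 member-by-comparison values, 48 were called, 36 of these under every count-based alternative and 26 under every alternative run. On log2(TPM + 1) and log2(TPM + 0.1), respectively, some values turned sign. For retinoic acid in WT these were Phf6 (0.45, 0.48), Rnf20 (0.42, 0.43), Rnf40 (0.11, 0.11), Ube2b (0.42, 0.42), Wac (0.05, 0.05) and Paf1 (0.45, 0.45). In KO they were Rnf20 (0.06, 0.06), Rnf40 (0.27, 0.28), Ube2b (0.30, 0.31) and Paf1 (0.20, 0.20), and for doxycycline in WT Rnf20 (0.00, 0.00). Members called with doxycycline in WT went from 8 to 5 on log2(TPM + 1), and members with a genotype difference in that response from 2 to 1 on both TPM scales. The cause was not tested. With each library left out in turn, members called with doxycycline numbered 5 to 8 in KO (5 without doxycycline-treated KO replicate 2) and 6 to 8 in WT. Those called with retinoic acid numbered 5 to 7 in WT and 6 to 8 in KO. KO to WT calls numbered 3 to 4 untreated, 5 in each fit with doxycycline and 4 to 6 with retinoic acid. Genotype differences numbered 2 to 3 with doxycycline and 1 in each fit with retinoic acid. A fit with the replicate block lost the calls of Rnf20 with doxycycline in WT (-0.14, adjusted p = 0.055) and Paf1 with retinoic acid in KO (-0.12, 0.051) and changed no other. The deviations of same-numbered libraries correlated at -0.27 to 0.15 over 11444 genes. These values cannot tell whether such libraries shared a culture or a preparation. Depth limits Phf6 in KO cells and Usp44 with doxycycline most, at 59 to 137 reads per library.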

Other observations

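Ubiquitin is also placed on histone H2A, mainly by Polycomb ligases, and genes of that system were set beside the H2B machinery. Of 17 such genes, 3 were higher and 9 lower in untreated KO cells, 0 higher and 9 lower with doxycycline, and 2 higher and 8 lower with retinoic acid (edgeR). Of all genes, 15.2% and 14.9%, 17.9% and 19.1%, and 18.8% and 20.0% were called in these comparisons. The list's medians were -0.16, -0.21 and -0.12, against 0.02, 0 and -0.01 over all genes. On log2(TPM + 1) the counts were 1 higher and 2 lower, 0 and 3, and 1 and 5, to which the edgeR shares of all genes do not apply. Rnf2, the catalytic Polycomb ligase gene, was lower in KO by -0.63, -0.39 and -0.44. It lies on chromosome 1, whose median was -0.49, -0.5 and -0.49, and the part of that shift was not tested. Bmi1, a partner of RNF2, rose with doxycycline by 2.24 in WT and 2.86 in KO, and with retinoic acid by 1.84 and 2.53.

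Of 8 elongation factor genes upstream of the mark, 0 were higher and 1 lower in untreated KO cells, and 1 was higher and 3 lower in each treatment, beside the all-gene shares of 15.2% and 14.9%, 17.9% and 19.1%, and 18.8% and 20.0%. With so few genes these counts are given as a description. Ccnt2, a cyclin T gene on chromosome 1, was lower in KO by -0.52, -0.69 and -0.62.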
